A study of Mus musculus with 14 samples.

Results

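The core genes of de novo lipogenesis were followed in mouse liver under an SGLT2 inhibitor and under weight-matched caloric restriction. The group holds 10 genes, chosen by name as the enzymes, cofactors and transcription factor of fatty acid synthesis, and all 10 were found among the 22180 named genes of the array. Each was read from the probe set that the platform annotation gives to that symbol alone, and for Mid1ip1, which has several such probe sets, from the one with the highest mean over the 14 arrays. The members were chosen with earlier results of these data known, so a count over them describes these genes and is no independent evidence.

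Liver RNA came from male C57Bl/6J mice that were put on a 60% high-fat diet (HFD) at 6 weeks of age for 4 weeks to make them obese, and every group carried this diet-induced obesity. For a further 4 weeks 1 group received canagliflozin with the diet (n = 5 arrays; 30 mg/kg in the sample labels, 25 to 30 mg/kg in the protocol). A second group, also labelled HFD, ate 15 to 30% fewer calories to match the body weight of the drug group (n = 5), and the control group continued on HFD (n = 4). No lean group was analysed here, so a level in HFD controls is that of obese mice. Canagliflozin blocks SGLT2, through which the kidney takes glucose back from the filtrate, and the comparison with restricted mice asks what differs under the drug at a like body weight.

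De novo lipogenesis turns surplus carbohydrate into fatty acids in the cytosol of hepatocytes. Citrate leaves mitochondria and is split to acetyl-CoA, acetyl-CoA is carboxylated to malonyl-CoA, and fatty acid synthase joins these units to palmitate, which is then elongated and desaturated. Insulin drives the pathway largely through the transcription factor SREBP-1c and glucose through ChREBP, and in obese, insulin-resistant liver it is known to stay active.

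Values are log2 signals normalized by RMA, a method that corrects background and equalises the arrays, so 1 unit is a doubling on each gene's own scale and levels of different genes are not compared. The arrays were alike in scale (medians from 4.07 to 4.13) and correlated at r = 0.971 to 0.985 for any pair over all probe sets. All 9 measured hepatocyte markers of 10 listed were bright, from 9.28 for Apoc3 to 14.01 for Alb. Adipose tissue is the other main lipogenic tissue of the mouse, and 6 of its 8 listed markers were measured. Lep (2.93), Adipoq (3.11) and Cidea (4.02) had means below the array medians, and Retn (4.41), Plin1 (4.55) and Fabp4 (5.73) above them. The sum of the 6 measured adipocyte markers ran from 6.93 to 7.48 (log2) under canagliflozin, against 6.83 to 7.04 under restriction and 6.87 to 7.15 in HFD controls. At an unadjusted limma p under 0.05, 1 adipocyte marker was lower and 1 higher under the drug than in HFD controls, where 3.3% of all genes were lower and 3.21% higher, with differences from -0.42 to 0.56 over the 6. Against restriction 2 were higher, where 3.07% of all genes were, with differences from -0.23 to 0.57. Their part in the lipogenic differences was not tested. In whole liver, less RNA per hepatocyte and fewer lipogenic hepatocytes cannot be told apart.

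Most lipogenic genes had lower means under canagliflozin than in either other group, and the restricted mice stayed close to HFD controls. Against HFD controls 9 of 10 members had lower means under the drug, with a median log2 fold change of -0.52, where the median over all genes tested was -0.00085 and 50.3% of genes had lower means. Against restricted mice of matched weight all 10 members had lower means, with a median of -0.50, where 51% of all genes did. Under restriction against HFD controls 7 of 10 were lower, with a median of -0.077, where 49.5% of all genes were. This median moved to -0.011 without restricted replicate 3 and to -0.13 without HFD control replicate 2, and the median against restriction moved to -0.33 without canagliflozin replicate 4.

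No member passed an adjusted p of 0.05 in any comparison (limma, Benjamini-Hochberg over 22180 genes). The adjusted p of the members ran from 0.559 to 0.966 for the drug against HFD controls, from 0.683 to 0.953 for the drug against restriction, and was 0.999 for each under restriction against HFD controls. The share of all genes that passed was 0% in both comparisons with HFD controls and 0.00451% for the drug against restriction, which is 1 gene, Rtkn, lower under the drug and named here after its value was seen. At an unadjusted limma p under 0.05, 7 of 10 members were lower under the drug than in HFD controls, where 3.3% of all genes were, and 7 of 10 were lower than under restriction, where 2.98% were. These were Fasn, Scd1, Thrsp, Mid1ip1, Acaca and Srebf1 in both comparisons, with Acly against HFD controls and Acss2 against restriction. Under restriction against HFD controls 0 of 10 had such a p, where 1.87% of all genes were lower and 2.06% higher at that level. The comparisons share arrays, so their values for a gene are not independent of each other, and the members themselves varied together.

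One drug-treated mouse did not share the pattern. Canagliflozin replicate 3 had the highest value of its group for 9 of 10 members and lay below the lowest HFD control for 0 of 10. Replicates 1, 2 and 5 lay below every HFD control for 8 members each, and replicate 4 for 7. Its mean r with its own group over all probe sets was 0.977, where the other drug arrays had 0.975 to 0.978. Over the named genes it was 0.9879, the lowest of the 14 arrays, where the other drug arrays had 0.9885 to 0.9888. Results are given with and without it. It is the array that differs in these very genes, so leaving it out narrows the spread of the drug group and favours a call.

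**Figure D1:**
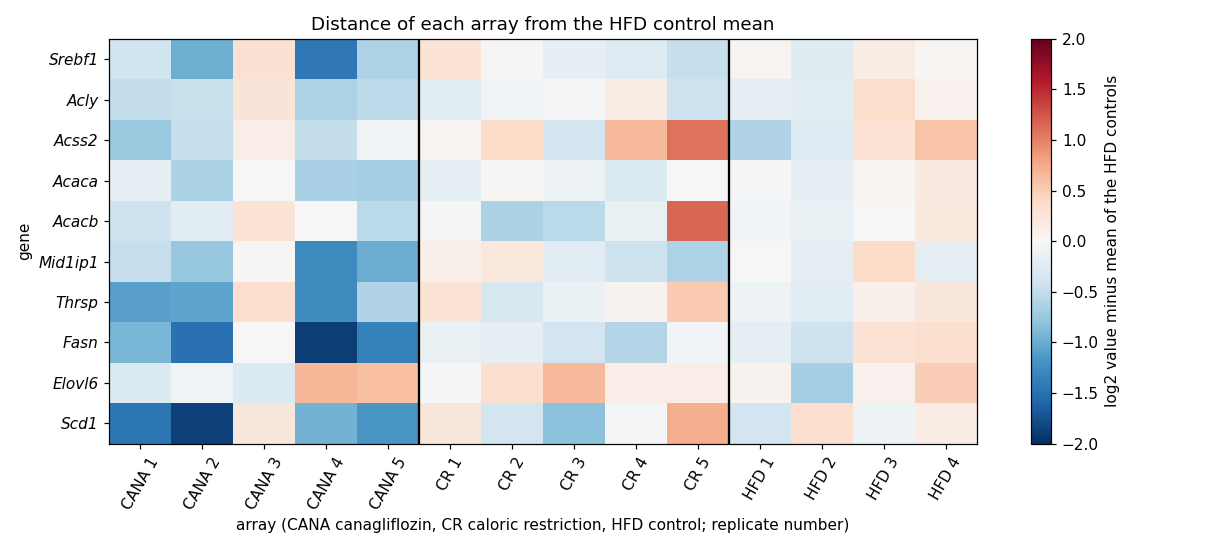
Log2 value of each of the 10 genes (rows) in each of the 14 arrays (columns) minus the mean of the 4 HFD controls; blue is below and red above that mean. Canagliflozin replicates 1, 2, 4 and 5 are blue for most genes, and canagliflozin replicate 3 resembles the controls.

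Averaged over the 10 members, the distance from the HFD control mean was -0.64, -0.80, -0.79 and -0.59 in canagliflozin replicates 1, 2, 4 and 5 and 0.13 in replicate 3. In the restricted mice it ran from -0.21 to 0.21, and in the HFD controls themselves from -0.22 to 0.21. The map of all arrays shows that the restricted mice filled the same range as the controls, while 4 drug-treated mice lay below both.

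Srebf1 encodes SREBP-1, the transcription factor that switches on the other genes of the pathway, and the annotation does not say which of its isoforms the probe set reads. It (probe set 17263535) measured 8.24, 7.66, 8.95, 7.21 and 8.02 in canagliflozin replicates 1 to 5, 8.91, 8.66, 8.47, 8.37 and 8.17 in restricted mice and 8.70, 8.39, 8.78 and 8.68 in HFD controls. Of the drug-treated mice, 4 lay below every HFD control and replicate 3 lay above every array of both other groups. The difference was -0.62 ± 0.24 (SE) against HFD controls (limma adjusted p = 0.708) and -0.50 ± 0.23 against restricted mice (adjusted p = 0.811). Restricted mice differed from HFD controls by -0.12 ± 0.24, and without canagliflozin replicate 3 the drug differences were -0.85 ± 0.19 and -0.73 ± 0.18.

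Acetyl-CoA is supplied by Acly, the ATP citrate lyase that cleaves exported citrate, and by Acss2, which activates acetate. Acly (probe set 17269521) measured 9.23, 9.26, 9.96, 9.10 and 9.19 under canagliflozin, 9.49, 9.64, 9.67, 9.86 and 9.29 under restriction and 9.51, 9.48, 10.05 and 9.79 in HFD controls. The drug arrays other than replicate 3 formed a tight set below all controls and all restricted mice. The difference was -0.36 ± 0.17 against HFD controls (limma adjusted p = 0.758) and -0.24 ± 0.16 against restriction, and -0.51 ± 0.14 and -0.40 ± 0.13 without replicate 3. Acss2 (probe set 17378359) measured 8.01, 8.30, 8.90, 8.29 and 8.69 under canagliflozin, 8.81, 9.12, 8.40, 9.41 and 9.84 under restriction and 8.15, 8.50, 9.06 and 9.33 in HFD controls. Its controls spread widely and overlapped the drug group, while restricted mice were the highest group and 3 of 5 drug arrays lay below all of them. Acss2 differed by -0.68 ± 0.25 from restriction (limma adjusted p = 0.774) and by -0.32 ± 0.27 from HFD controls, and restriction itself stood at 0.36 ± 0.27 against HFD controls. The drug value against HFD controls was -0.13 without HFD control replicate 4 and -0.52 without HFD control replicate 1, and the restriction value was 0.55 and 0.15 without the same arrays and 0.17 without restricted replicate 5.

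The carboxylation step has a pair of enzymes: Acaca makes the malonyl-CoA used for fatty acid synthesis, and Acacb makes a pool at mitochondria that restrains fatty acid uptake through CPT1. Acaca (probe set 17254395) measured 8.05, 7.59, 8.23, 7.56 and 7.56 under canagliflozin, 8.04, 8.24, 8.12, 7.95 and 8.22 under restriction and 8.18, 8.03, 8.27 and 8.40 in HFD controls. Replicates 2, 4 and 5 of the drug group lay well below all other arrays, and replicates 1 and 3 lay inside the range of the controls. The difference was -0.42 ± 0.14 against HFD controls (limma adjusted p = 0.607) and -0.32 ± 0.13 against restriction (adjusted p = 0.801). Acacb (probe set 17440826) measured 6.65, 6.86, 7.34, 7.05 and 6.52 under canagliflozin, 7.03, 6.44, 6.52, 6.92 and 8.21 under restriction and 7.02, 6.92, 7.05 and 7.28 in HFD controls. All groups overlapped, and the highest value of all belonged to restricted replicate 5. Its differences were -0.19 ± 0.26 against HFD controls and -0.14 ± 0.25 against restriction, and the second had the opposite sign (0.15) without that restricted array. The 95% intervals for Acacb, from -0.74 to 0.37 and from -0.67 to 0.38, allow a change in either direction.

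Mid1ip1 encodes an activator that makes acetyl-CoA carboxylase polymerise, and Thrsp encodes its relative Spot 14, which is induced by thyroid hormone and by carbohydrate. Mid1ip1 (probe set 17533282) measured 6.77, 6.46, 7.25, 5.95 and 6.23 under canagliflozin, 7.32, 7.44, 7.01, 6.82 and 6.61 under restriction and 7.22, 7.05, 7.59 and 7.05 in HFD controls. The 4 drug arrays other than replicate 3 lay below every control, and restricted replicate 5 lay within their range. The difference was -0.70 ± 0.22 against HFD controls (limma adjusted p = 0.596) and -0.51 ± 0.21 against restriction (adjusted p = 0.801). The other 2 probe sets of Mid1ip1 were dim. One averaged 4.70 ± 0.14 (SD, n = 5) under the drug, 4.95 ± 0.34 (n = 5) under restriction and 4.67 ± 0.42 (n = 4) in HFD controls, and the other 3.99 ± 0.22 under the drug, 3.88 ± 0.15 under restriction and 3.81 ± 0.14 in HFD controls. With the mean of all 3 probe sets the Mid1ip1 differences were -0.16 against HFD controls and -0.22 against restriction.

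Thrsp (probe set 17493432) measured 10.33, 10.35, 11.74, 10.15 and 10.81 under canagliflozin, 11.69, 11.09, 11.28, 11.49 and 11.93 under restriction and 11.31, 11.18, 11.52 and 11.63 in HFD controls. Replicates 1, 2, 4 and 5 of the drug group lay below every array of both other groups, and replicate 3 lay above every control. It was 1.66-fold lower against HFD controls (-0.73 ± 0.25, limma adjusted p = 0.612) and 1.76-fold lower against restriction (-0.82 ± 0.24, adjusted p = 0.683). Restricted mice differed from HFD controls by 0.08 ± 0.25, the other way in sign, which became -0.026 without restricted replicate 5.

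Fasn encodes fatty acid synthase, which makes palmitate from malonyl-CoA. It (probe set 17273348) measured 9.28, 8.71, 10.19, 8.31 and 8.84 under canagliflozin, 10.07, 9.999, 9.81, 9.61 and 10.14 under restriction and 10, 9.78, 10.49 and 10.51 in HFD controls. The drug arrays other than replicate 3 lay below every restricted and every control array, and replicate 3 lay above all restricted mice. Fasn was 1.82-fold lower under the drug than under restriction (-0.86 ± 0.25, 95% interval -1.40 to -0.33, limma adjusted p = 0.683). Against HFD controls it was 2.19-fold lower (-1.13 ± 0.27, limma adjusted p = 0.559) and held rank 19 of 22180 genes in that comparison by limma p-value. Restricted mice differed from HFD controls by -0.27 ± 0.27.

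Palmitate is lengthened to stearate by Elovl6 and desaturated by Scd1, which makes oleate. Elovl6 (probe set 17402558) measured 9.08, 9.28, 9.09, 10.03 and 9.98 under canagliflozin, 9.33, 9.69, 10.02, 9.51 and 9.51 under restriction and 9.44, 8.71, 9.46 and 9.86 in HFD controls. It did not follow the others: drug replicates 4 and 5, both low for Fasn, gave its highest values in that group, and the lowest array of all was HFD control replicate 2. The difference was 0.12 ± 0.23 against HFD controls and -0.12 ± 0.22 against restriction, and the first had the opposite sign without HFD control replicate 2 (-0.10), canagliflozin replicate 4 (-0.015) or canagliflozin replicate 5 (-0.0013). Scd1 (probe set 17365098) measured 11.04, 10.63, 12.72, 11.55 and 11.34 under canagliflozin, 12.72, 12.13, 11.68, 12.48 and 13.22 under restriction and 12.12, 12.84, 12.39 and 12.64 in HFD controls. The 4 drug arrays other than replicate 3 lay below every array of both other groups. It was 2.06-fold lower against HFD controls (-1.04 ± 0.33, limma adjusted p = 0.596) and 1.99-fold lower against restriction (-0.99 ± 0.32, adjusted p = 0.683), whereas restriction stood at -0.05 ± 0.33 against HFD controls.

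**Figure D2:**
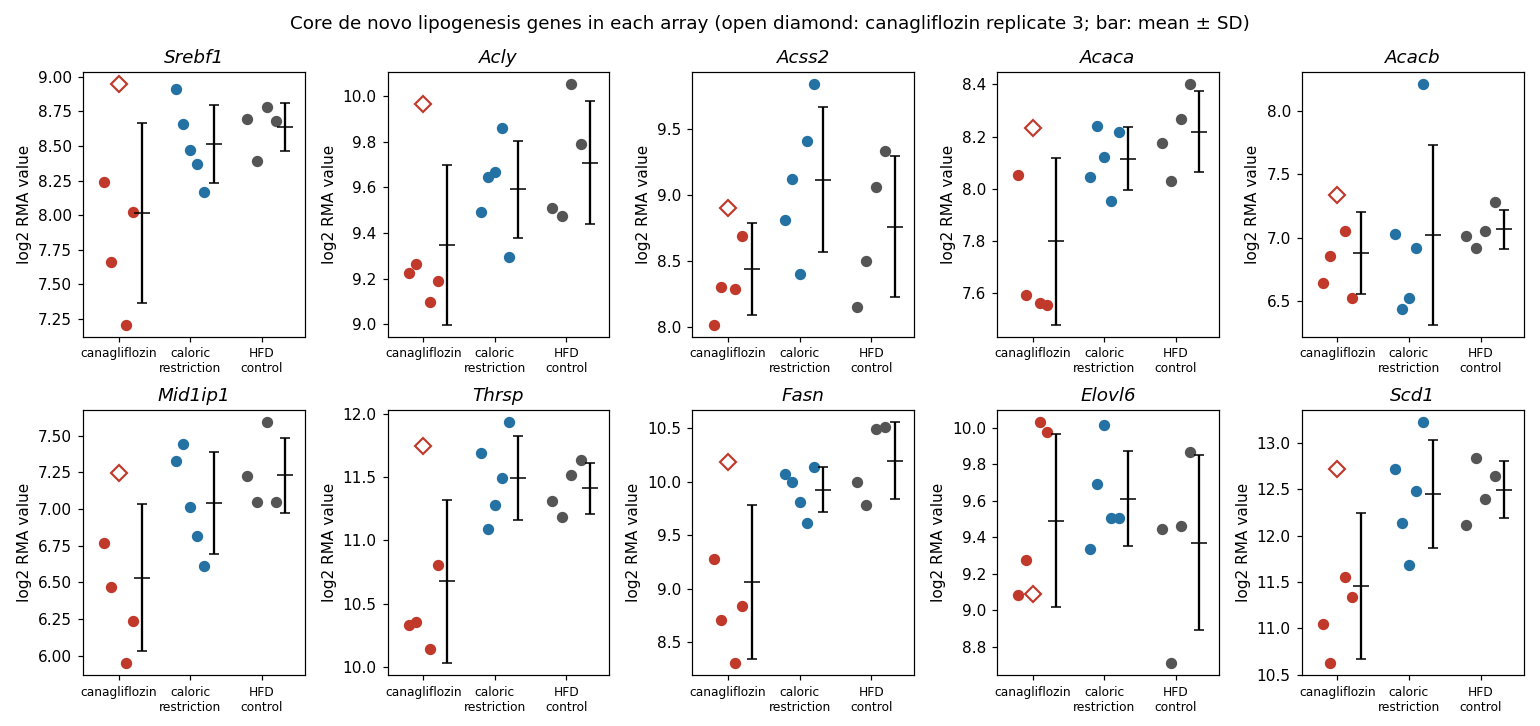
Log2 RMA value of each gene (one panel a gene, axes on each gene's own scale) in canagliflozin (n = 5), caloric restriction (n = 5) and HFD control (n = 4) arrays; points are arrays, the open diamond is canagliflozin replicate 3, and bars give mean ± SD. For Srebf1, Acly, Mid1ip1, Thrsp, Fasn and Scd1 the 4 filled drug points lie below every HFD control point.

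The order of the group means was the same for 7 members, Srebf1, Acly, Acaca, Acacb, Mid1ip1, Fasn and Scd1: canagliflozin lowest, then restriction, then HFD control. Thrsp and Acss2 had their highest mean under restriction, and Elovl6 had its lowest in HFD controls. For each of the 10 genes the 95% interval of the difference between restriction and HFD control spanned 0, and it ran from -0.84 to 0.30 for Fasn and from -0.75 to 0.65 for Scd1. These intervals still allow a sizeable difference under restriction, and they do not show that restricted mice equal the controls.

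Without canagliflozin replicate 3, Fasn and Thrsp passed the threshold in both comparisons. Fasn differed by -1.41 ± 0.19 from HFD controls (limma adjusted p = 0.0122) and by -1.14 ± 0.18 from restricted mice (adjusted p = 0.026). Thrsp differed by -1.002 ± 0.17 (adjusted p = 0.0486) and -1.09 ± 0.17 (adjusted p = 0.0193), and Scd1 by -1.36 ± 0.27 (adjusted p = 0.0837) and -1.31 ± 0.25 (adjusted p = 0.0815). These 2 members of 10 stand beside 0.0541% and 0.0721% of all genes called in either direction against HFD controls and against restriction without that array. At an unadjusted p under 0.05, 7 and 8 of 10 members were lower, where 3.82% and 3.52% of all genes were. With all arrays 0 of 10 members lay wholly below the other group in any comparison. Such separation was found for 0.965% of all genes under the drug against HFD controls, 0.491% under the drug against restriction and 0.694% under restriction against HFD controls. Without that array 6 members lay wholly below HFD controls (Fasn, Acly, Scd1, Thrsp, Mid1ip1 and Srebf1), where 2.16% of all genes did, and 4 lay wholly below restricted mice (Fasn, Acly, Scd1 and Thrsp), where 1.22% did. No other single array, left out of either drug comparison, gave a member an adjusted p under 0.05.

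**Figure D3:**
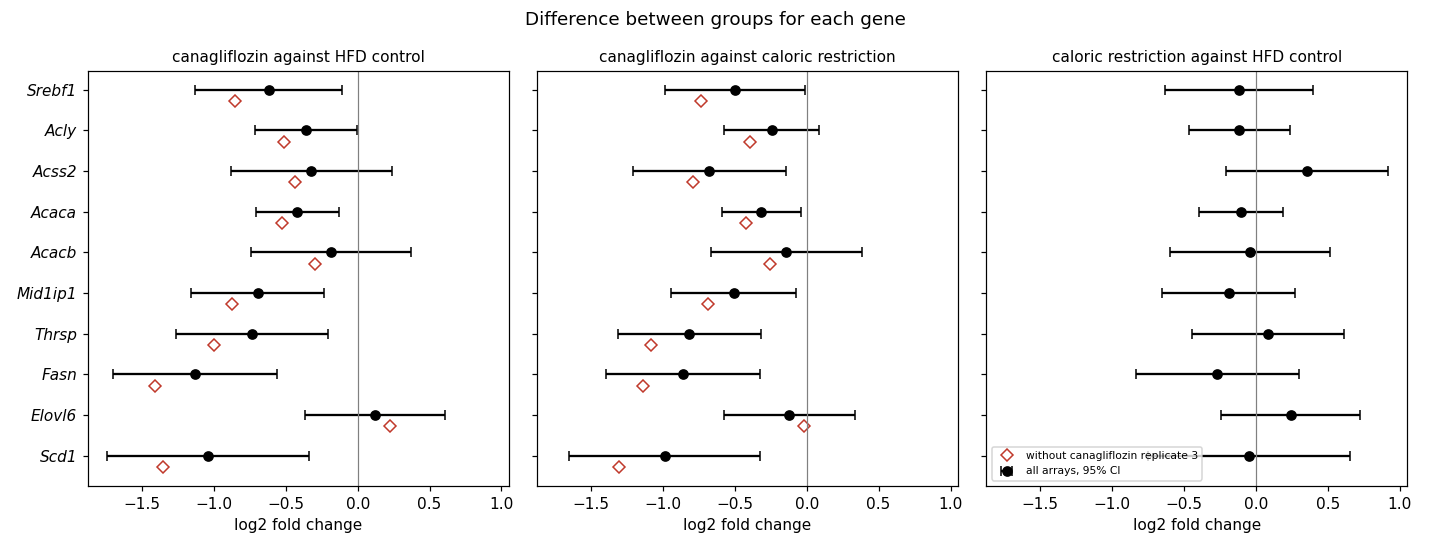
Log2 fold change of each gene (rows) in the 3 comparisons, first-named group minus second; filled points with bars are all arrays with the 95% interval, and open diamonds are the values without canagliflozin replicate 3. The intervals of Fasn, Scd1, Thrsp, Mid1ip1, Acaca and Srebf1 lie below 0 in both drug comparisons, before any adjustment for the number of genes, and all 10 intervals span 0 under restriction against HFD control.

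The members did not vary as 1 block across mice. Over the 45 pairs of members the median Pearson r across the 14 arrays was 0.58 and ranged from -0.35 to 0.95, as a description of arrays that share their groups. With each group's mean removed the median was 0.41, so part of the likeness lay among mice of the same group. These deviations include canagliflozin replicate 3, at 0.13 from the control mean where the other drug arrays averaged -0.80 to -0.59. Much of the likeness within groups may therefore rest on that array, and r within groups was not computed without it. With group means kept, the median r without that array was 0.55. Fasn and Acaca were the closest pair (r = 0.95 over 14 arrays and 0.90 within groups), followed by Srebf1 and Mid1ip1 (0.92 and 0.88). Scd1 and Thrsp were also close (0.88 and 0.78), and Acacb stayed nearer to Scd1 (0.63 and 0.70) than to Srebf1 (0.043 and -0.077). Acacb has 1 far value, 8.21 in restricted replicate 5. With values replaced by their ranks over the 14 arrays, its correlation was 0.62 with Scd1 and 0.31 with Srebf1. Elovl6 had a negative r with 8 of the other 9 members, the exception being Acss2 (0.14).

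Restricted replicate 5 shows where the members part. It held the highest values of its group for Fasn, Scd1, Thrsp, Acss2 and Acacb and the lowest for Srebf1, Mid1ip1 and Acly. Among the restricted mice this array was thus lowest for Srebf1 and highest for several of the genes SREBP-1 is known to activate. Its Fasn value, 10.14, still lay below the HFD control mean of 10.20. All of this rests on 1 array, and no test bears on it.

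**Figure D4:**
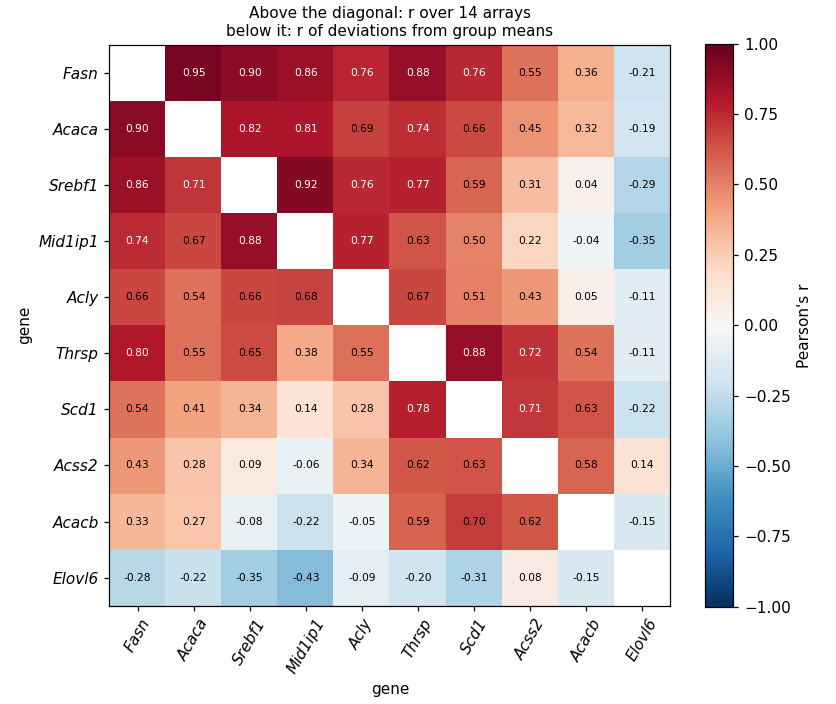
Pearson's r between each pair of the 10 genes, over the 14 arrays above the diagonal and over deviations from group means below it. Fasn and Acaca are the closest pair at 0.95, and Elovl6 is negative over the 14 arrays with every gene but Acss2.

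The promoters of members that varied together or apart are shown for their sequence content, with no binding measured. RefSeq windows from 250 bases before to 50 bases after an annotated start (GRCm38.p6) were matched for 9 of 10 members. There were 11 windows in all because Srebf1 has several starts, and Scd1 was not matched. The windows of Acaca, Acacb, Fasn and Srebf1 lie inside the gene's span and not at its outer end. The Acaca window begins at 84195188, where the gene begins at 84129635, and the Fasn window ends at 120824797, where the gene reaches 120825166. Matches there, or their absence, describe those starts only. Letters searched on both strands were CCAAT, the NF-Y box that works beside SREBP sites, GGGCGG, the GC box of Sp1, TCACNCCAC, a sterol regulatory element, and CACGTG, an E-box, with overlapping matches counted. A CCAAT match was found in 7 of 11 member windows (those of Fasn, Thrsp, Acly, Acss2 and Acacb and 2 of the 3 of Srebf1), where 37.4% of all 32851 windows hold one. A GC box was found in 5 of 11 (those of Acly, Acss2 and Mid1ip1 and 2 of Srebf1), where 35.7% of windows do. Neither the sterol element (1.24% of windows) nor the E-box (7.15%) was found in these windows, which says only that these exact letters are not there.

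Shown are Fasn and Thrsp, which followed the mean of the other members most closely across arrays (r = 0.94 and 0.93), Acly from the supply step, and Elovl6, which ran apart (r = -0.21). Capitals mark CCAAT or its reverse complement ATTGG and GGGCGG or its reverse complement CCGCCC, in windows read 5′ to 3′ on the gene's strand. Fasn lies at chr11:120824498-120824797, minus strand, Thrsp at chr7:97417501-97417800, minus strand, Acly at chr11:100527951-100528250, minus strand and Elovl6 at chr3:129532136-129532435, plus strand.
Fasn: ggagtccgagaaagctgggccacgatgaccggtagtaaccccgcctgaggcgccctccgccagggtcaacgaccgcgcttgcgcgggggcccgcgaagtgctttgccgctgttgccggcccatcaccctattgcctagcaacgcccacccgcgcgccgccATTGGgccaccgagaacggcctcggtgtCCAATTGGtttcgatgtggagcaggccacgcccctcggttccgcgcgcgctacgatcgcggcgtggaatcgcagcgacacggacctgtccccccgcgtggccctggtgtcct
Thrsp: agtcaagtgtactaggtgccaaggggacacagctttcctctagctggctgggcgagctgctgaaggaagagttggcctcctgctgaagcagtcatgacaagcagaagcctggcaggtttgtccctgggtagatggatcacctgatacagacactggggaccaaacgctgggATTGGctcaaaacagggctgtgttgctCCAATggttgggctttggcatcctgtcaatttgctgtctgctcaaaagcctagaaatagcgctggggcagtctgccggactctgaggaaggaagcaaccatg
Acly: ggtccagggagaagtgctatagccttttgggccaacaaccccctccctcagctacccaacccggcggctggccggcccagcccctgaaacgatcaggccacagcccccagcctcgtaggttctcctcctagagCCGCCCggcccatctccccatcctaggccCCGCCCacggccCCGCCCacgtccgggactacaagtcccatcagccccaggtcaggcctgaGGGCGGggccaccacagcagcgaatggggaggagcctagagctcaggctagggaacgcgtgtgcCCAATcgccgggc
Elovl6: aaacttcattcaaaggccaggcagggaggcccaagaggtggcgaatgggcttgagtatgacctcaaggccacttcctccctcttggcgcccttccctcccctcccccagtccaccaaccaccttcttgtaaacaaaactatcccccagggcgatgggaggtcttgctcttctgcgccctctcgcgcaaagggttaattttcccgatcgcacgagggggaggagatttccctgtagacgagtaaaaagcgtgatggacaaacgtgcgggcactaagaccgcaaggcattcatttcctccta
The Fasn window holds 3 CCAAT matches, of which 2 overlap, with first bases 62 and 59 before the start used for that window. The Thrsp window holds 2, at 79 and 52 bases before its own start. Acly has 4 GC boxes before its start and a CCAAT match after it, and Elovl6 has neither. The Acaca window, not shown, also has neither, and Acaca followed the mean of the other members at r = 0.84. Acacb has 1 CCAAT match and followed that mean at r = 0.35. A link between these letters and likeness across arrays was not tested.

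Around the core, genes that feed or control the pathway had medians nearer 0, and none of them passed an adjusted p of 0.05 in limma. Of 9 measured genes that supply acetyl-CoA, citrate or NADPH, 6 had lower means under the drug than in HFD controls (median -0.078), where 50.3% of all genes did, and 7 than under restriction (median -0.23), where 51% did. At an unadjusted p under 0.05, 1 of the 9 was lower against HFD controls and 2 against restriction, beside 3.3% and 2.98% of all genes. Aacs, which activates acetoacetate in the cytosol for lipid synthesis, averaged 6.78 ± 0.22 (SD, n = 5) under canagliflozin, against 7.51 ± 0.58 (n = 5) under restriction and 7.74 ± 0.46 (n = 4) in HFD controls. It differed by -0.74 ± 0.23 (SE) from restriction and by -0.96 ± 0.25 from HFD controls, and 4 of 5 drug arrays lay below every control. Slc25a1, the mitochondrial citrate exporter, differed by -0.18 ± 0.13 from HFD controls and -0.27 ± 0.13 from restriction. Me1, which makes NADPH for the synthase, differed by -0.39 ± 0.33 from HFD controls, and Pgd, of the pentose phosphate pathway, by -0.30 ± 0.16 from restriction.

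Regulators of SREBP-1 were mixed, with 8 of 14 lower against HFD controls (median -0.064) and 7 of 14 against restriction (median -0.0018). Of all genes, 50.3% and 51% had lower means in those comparisons. At an unadjusted limma p under 0.05, 1 was lower and 1 higher under the drug against HFD controls, where 3.3% and 3.21% of all genes were. Against restriction 0 of 14 had such a p, where 2.98% of all genes were lower and 3.07% higher. Insig2, which holds SREBP in the endoplasmic reticulum, averaged 8.41 ± 0.21 (SD, n = 5) under canagliflozin, against 8.05 ± 0.11 (n = 4) in HFD controls, a difference of 0.37 ± 0.15 (SE, limma adjusted p = 0.731). It differed by 0.18 ± 0.14 from restriction, and restricted mice stood at 0.19 ± 0.15 against HFD controls. Its relative Insig1 differed by -0.07 ± 0.26 from HFD controls and by -0.20 ± 0.24 from restriction under the drug. Mlxipl, which encodes the glucose-responsive ChREBP, differed by -0.32 ± 0.15 from HFD controls and -0.23 ± 0.14 from restriction. Under restriction against HFD controls 1 of these 14 genes, Fbxw7, which marks nuclear SREBP for breakdown, had an unadjusted limma p under 0.05, at -0.23 ± 0.10 (adjusted p = 0.999), where 1.87% of all genes were lower at that level.

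Genes that handle malonyl-CoA or control the carboxylases lay near 0, with a median of -0.049 over 11 genes against HFD controls and -0.014 against restriction. Of these, 0 had an unadjusted limma p under 0.05 in any comparison. Under the drug 3.3% of all genes were lower and 3.21% higher at that level against HFD controls, and 2.98% and 3.07% against restriction. For restriction against HFD controls the shares were 1.87% and 2.06%. Cpt1a, the entry step of fatty acid oxidation that malonyl-CoA inhibits, differed by 0.21 ± 0.14 from HFD controls and 0.25 ± 0.13 from restriction. Among AMPK subunits, whose kinase phosphorylates the carboxylases, Prkab1 differed by -0.13 ± 0.09 in both comparisons and Prkaa2 by -0.17 ± 0.11 from restriction.

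Relatives of the core genes gave no common direction, with 8 of 12 higher under the drug in each comparison. The other 4 were lower in each, where 50.3% of all genes were lower against HFD controls and 51% against restriction. Elovl3, an elongase of very long chains that is no part of palmitate synthesis, averaged 10.997 ± 0.27 (SD, n = 5) under canagliflozin, against 9.83 ± 0.55 (n = 4) in HFD controls, with every drug array above every control, as held for 0.987% of all genes. Its difference was 1.17 ± 0.30 (SE, limma adjusted p = 0.559), and restricted mice stood at 0.81 ± 0.30 above HFD controls (unadjusted p = 0.015, adjusted p = 0.999). The elongases Elovl3 and Elovl6 thus had differences from HFD controls of unlike size under the drug, a contrast that was not tested.

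Among 11 other genes responsive to SREBP-1 or insulin, 7 had lower means in each drug comparison (medians -0.11 and -0.054), where 50.3% and 51% of all genes did. Pklr, the liver pyruvate kinase and a classical ChREBP target, averaged 10.10 ± 0.40 (SD, n = 5) under canagliflozin, against 10.92 ± 0.14 (n = 5) under restriction and 10.68 ± 0.45 (n = 4) in HFD controls. It was lower than every restricted array in 5 of 5 drug-treated mice (-0.82 ± 0.19, SE, limma adjusted p = 0.487). Such complete separation downward held for 0.491% of all genes in this comparison, and for 0 of the 10 core members. Dgat2, the last step of triglyceride synthesis, was also below all restricted mice in 5 of 5, by -0.16 ± 0.08.

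**Figure D5:**
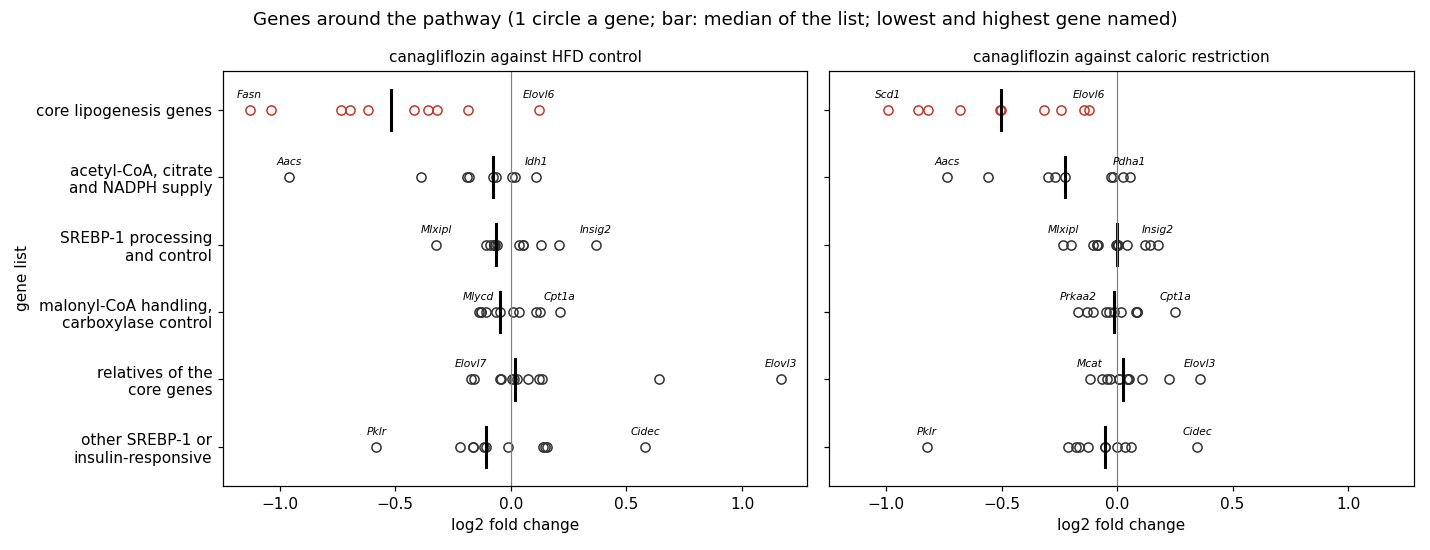
Log2 fold change of each gene (circles) in the core group and in 5 surrounding gene lists, for canagliflozin against HFD control and against caloric restriction; bars are list medians, and the lowest and highest gene of each list are named. The core median lies at -0.52 and -0.50, and the medians of the surrounding lists lie between -0.23 and 0.027.

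Across the 14 arrays the genes whose values most resembled the mean standardized value of the 10 members were sought among 8720 other named genes whose mean log2 reached 5. The closest were Ppp1r3c (r = 0.91), Leap2 (0.90), Ppp1r3b (0.90), Tmem41b (0.89), Pold2 (0.89), Rmnd5b (0.88), Ces2g (0.87) and Pemt (0.87), and the most opposite were Csrp2 (-0.94), Brap (-0.92) and Coq10b (-0.89). Ppp1r3c, which targets a phosphatase to glycogen, kept the first rank with group means removed (r = 0.95), and averaged 5.52 ± 0.73 (SD, n = 5) under canagliflozin, 7.32 ± 0.32 (n = 5) under restriction and 6.62 ± 0.58 (n = 4) in HFD controls. Of the 8 closest genes, 3 were also among the closest 8 with group means removed and 6 without canagliflozin replicate 3. The values with group means removed include that array, which lay apart from its group. These values of r come from the same arrays that define the summary and are a description.

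Markers of other liver cells were set beside these differences. All 8 Kupffer cell and macrophage markers had higher means under canagliflozin than under restriction (median 0.21, 0 with an unadjusted limma p under 0.05 or an adjusted p under 0.05), with a summed level of 9.86 to 10.35 (log2) against 9.29 to 10.29. Against HFD controls 7 of 8 were higher (median 0.12), where controls ran from 9.54 to 10.45. Of all genes, 51% had lower means under the drug than under restriction, and 50.3% than in HFD controls. At the unadjusted level 2.98% of all genes were lower and 3.07% higher against restriction. Under restriction 6 of the 8 markers had lower means than in HFD controls (median -0.10), where 49.5% of all genes did. The summed hepatocyte markers ran from 16.01 to 16.10 under the drug, 16.00 to 16.07 under restriction and 15.96 to 16.05 in HFD controls, and the stellate sum from 10.88 to 11.20 under the drug, 10.41 to 10.99 under restriction and 10.64 to 11.05 in HFD controls. The 8 stellate markers differed by -0.50 to 0.57 between the drug and HFD controls. Of these, 1 was lower and 1 higher at an unadjusted limma p under 0.05, where 3.3% and 3.21% of all genes were. Against restriction 1 was higher, where 3.07% of all genes were, with differences from -0.24 to 0.54. Endothelial sums were 10.32 to 10.76 under the drug, 10.31 to 10.79 under restriction and 10.39 to 10.66 in HFD controls, and the cholangiocyte and lymphocyte sums lay between 6.77 and 7.15 in every group. The part of these cells in the lipogenic differences was not tested.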

How the data were processed

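Liver total RNA (250 ng) was labelled with the Affymetrix WT Plus protocol, 1 array a sample, per the labels' protocols. Each probe set has a log2 value that the authors deposited. RMA and Affymetrix Expression Console are named in the submitters' processing notes, and neither version nor genome build was given in the sources used here. RMA equalises the arrays, so a global change in RNA would not be seen. The number of arrays limits the precision: over all genes, half-widths of the 95% intervals had a median of 0.25 (log2) against HFD controls and 0.24 between the treated groups. The intervals of the members were wider. For the drug against HFD controls the narrowest was that of Acaca (-0.71 to -0.13) and the widest that of Scd1 (-1.74 to -0.34). Each array was taken as 1 mouse, which the labels do not state array by array, and a mouse in the text means 1 array. The limma p-values set the group differences against the spread between these arrays.

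Of 41345 probe sets, 23521 had 1 symbol, 1814 several and 16010 no entry (unnamed here). The probe set with the highest mean was used for each of 22180 genes. Group means of all 14 arrays were fitted with limma 3.58.1 in R 4.3.3 (lmFit, eBayes), with no filter and Benjamini-Hochberg adjustment per comparison at 0.05. The fit was tested on simulated data. Members and gene lists were chosen with earlier results of these data known. Named genes were all members, the 3 genes of smallest p per list and comparison (a part of them printed), and the 8 most and 3 least like the members over the arrays. Alternatives were a fit of only 2 groups, a minimum mean log2 of 5 or 6, median centring, cyclic loess, trended robust variance, array weights, a replicate block, the deposited order, other uses of probe sets, a threshold of 0.1 and leaving out each array.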

Additional observations from a re-analysis of the deposited data

Results flagged for a closer look

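Acly in canagliflozin replicate 3 stood at 9.96, while the other 4 drug-treated mice lay between 9.10 and 9.26; the gap to the nearest of them was 0.807 of the whole range of the group, above Dixon's 95% limit for 5 samples. Of 30 sets of values examined this way (10 genes in 3 groups), 1 passed that limit, and chance flags about 1 in 20. The Acly difference from HFD controls was -0.36 with this array and -0.51 ± 0.14 (SE) without it.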

How the results depend on the processing

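The count of members with an adjusted p under 0.05 was 0 in every comparison under each alternative except leaving out canagliflozin replicate 3. Over the arrays left out in turn this count ran from 0 to 2 in both drug comparisons, and the number of all genes called from 0 to 12 against HFD controls and from 0 to 16 against restriction. Under the other settings the median of the members kept its sign, from -0.54 to -0.39 against HFD controls, from -0.54 to -0.41 against restriction and from -0.094 to -0.046 for restriction against HFD controls. With single arrays left out it ran from -0.69 to -0.39, from -0.71 to -0.33 and from -0.13 to -0.011 in the same comparisons. The number of all genes called against HFD controls was 1 with either filter and with the deposited order as a covariate, against 0, and the same covariate gave 1 for restriction against HFD controls. For the drug against restriction it was 0 with only the 2 groups compared, with a filter at 6 or with all probe sets tested, against 1. With the replicate block it was 2, and no member's call changed. Same-numbered arrays of different groups had deviations correlated at r = -0.089 to 0.20 (median 0.050). For differently numbered arrays r ran from -0.21 to 0.18 (median -0.019). The numbers were not taken as pairs. In the deposited order HFD control replicates 3 and 4 stand beside replicates 4 and 5 of the other groups. Neither the block nor these correlations test sets formed by that order. Mid1ip1 under restriction against HFD controls had the opposite sign with the mean of its probe sets (0.055). Leaving out 1 array turned the sign for restriction against HFD controls of Scd1 (-0.24 to 0.14), Acacb (-0.34 to 0.10) and Thrsp (-0.026 to 0.19). It also turned Elovl6 for the drug against HFD controls (-0.10 to 0.29) and Acacb for the drug against restriction (-0.29 to 0.15). The cause of these changes was not tested beyond the arrays or genes each setting leaves out. Median centring moved the median of all genes by at most 0.02. The background of the arrays could not be redone from the deposited values.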
